A study of Oryza sativa with 6 samples.

Results

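The gibberellin genes described here are 10 rice loci of hormone synthesis, breakdown and signalling, taken as every array probe whose name begins with 1 of 10 listed locus IDs. They had 34 of the 42418 non-control probes on the array and 10 of its 29689 named loci. The loci lie on 4 chromosomes, as their IDs give them. GA20ox2 (Os01g0883800), GA3ox2 (Os01g0177400), GA2ox3 (Os01g0757200) and GAMYB (Os01g0812000) are on chromosome 1, and GID2 (Os02g0580300) is on chromosome 2. GA20ox1 (Os03g0856700) and SLR1 (Os03g0707600) are on chromosome 3, and GA3ox1 (Os05g0178100), GA2ox1 (Os05g0158600) and GID1 (Os05g0407500) are on chromosome 5. The gene names come with the list of loci and not from the deposited files.

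Transcripts were measured in nucellar projection cells of Oryza sativa seeds 3 days after flowering. This strip of maternal tissue faces the vascular bundle of the young seed. Its cells were isolated by laser capture microdissection, which cuts chosen cells out of a section, and the RNA went through 2 rounds of amplification before hybridisation to 1-colour arrays. The 3 groups were A-OsMADS29 line 2, A-OsMADS29 line 14 and wild type ZH11, with 2 arrays each. All were in the ZH11 cultivar background and were grown alike, and both lines carry the genotype label OsMADS29 mutant. OsMADS29 is a MADS-box transcription factor. The meaning of the prefix A, the promoter and the construct behind the lines are not given in the sources used here, and neither is the number of plants or seeds per sample. The p-values below therefore measure the spread between these samples.

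Active gibberellins are made from inactive precursors by GA20-oxidases and then GA3-oxidases, and GA2-oxidases inactivate them. The hormone binds the receptor GID1, which then captures the DELLA protein SLR1, a repressor of gibberellin responses. The F-box protein GID2 leads captured SLR1 to degradation, and GAMYB is a transcription factor induced downstream, known in cereals from the aleurone of germinating grain and from anthers.

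A spot is called well above background here where the scanner software flagged its signal as clearly over the local background. This held for 72.9% to 79.8% of the probes per array, and 0 spots were saturated. Line 2 and wild type shared 1 slide and line 14 was alone on the other, so line 14 and its slide cannot be told apart. Wild-type replicate 1 had the lowest mean correlation with the other arrays across genes, 0.907. Across all genes tested, 15.9% differed by more than 2-fold between the replicates of line 2, 16.2% in line 14 and 26.1% in wild type. Among the 8 gibberellin genes tested, 1 did so in line 2, 3 in line 14 and 3 in wild type. OsMADS29 itself (Os02g0170300, an ID set from general knowledge) stood at -0.27 and 0.89 on the line 2 arrays, 0.17 and 0.00 on those of line 14 and 0.38 and 0.88 on those of wild type, as log2 signal minus the array's 75th percentile. Its difference between both lines and wild type was -0.43 (95% confidence interval -1.46 to 0.60, limma adjusted p = 0.876), and the labels do not say which part of the gene is altered, so it does not check them. The labelled cell type was not checked against marker genes here.

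The comparisons asked which gibberellin transcripts differed when OsMADS29 was altered. None of the 8 gibberellin genes tested passed limma's test at an adjusted p of 0.05 in any of the 4 comparisons made. The values furthest from wild type were those of GA2ox3, which inactivates gibberellin, at -2.05 on the log2 scale in line 2 and -1.45 in line 14, that of the receptor GID1 in line 2, at 2.24, that of GA3ox2, which makes active gibberellin, in line 14, at -1.28, and that of GA20ox1, which makes gibberellin precursors, in line 2, at 1.26. GID1 entered the test only through line 2, where it is high, since its probe was well above background on both line 2 arrays and on 1 array of each other group. The brightest probes of SLR1, of the locus named GID2 and of GAMYB lay within 0.16 of wild type on the log2 scale in each line, while other probes of GID2 and GAMYB lay further off. At least 1 of these small differences of each gene took the other sign under another scaling. GA3ox1 was well above background on 1 wild-type array of the 6 arrays, and GA2ox1 on 1 line 2 array. With cells pooled in bulk, fewer cells of a type and less RNA per cell cannot be told apart.

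Levels are given as log2 of the processed signal minus the 75th percentile of the same array, so that 0 is that percentile. They serve to compare arrays at 1 probe and not to rank genes. A gene is represented by its brightest kept probe, and its probes are numbered from the brightest down.

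**Figure D1:**
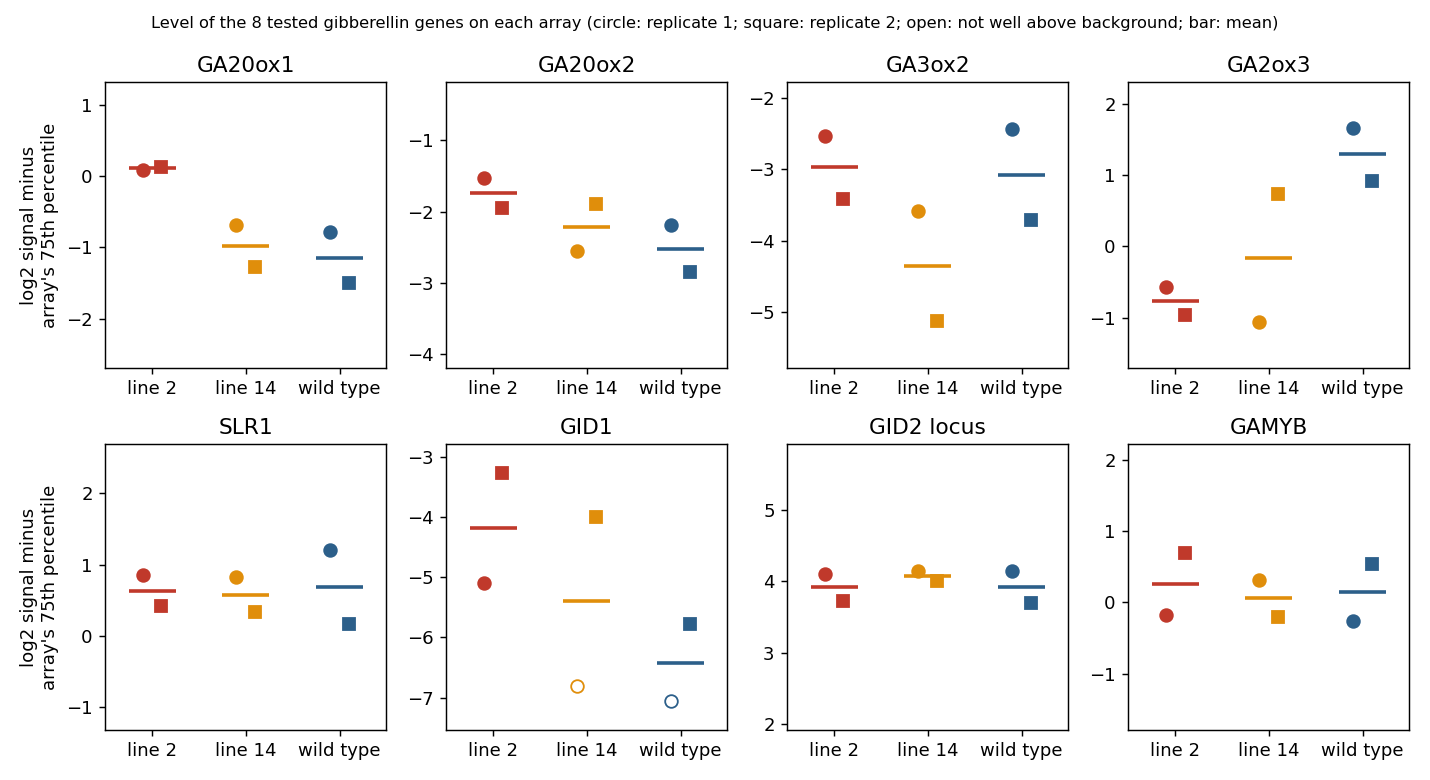
Level of the 8 tested gibberellin genes on every array, as log2 signal minus the array's 75th percentile, with line 2, line 14 and wild type from left to right. Circles are replicate 1, squares replicate 2, open symbols arrays where the probe was not well above background, and bars group means (n = 2). GA20ox1 is near 0.11 on both line 2 arrays, GA2ox3 is highest on the wild-type arrays, and SLR1 and GAMYB overlap in all groups.

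GA20ox1 encodes a GA20-oxidase, which catalyses late steps towards the precursor of active gibberellin. Its level was 0.09 and 0.13 on the line 2 arrays, -0.68 and -1.27 on the line 14 arrays, and -0.79 and -1.50 on the wild-type arrays. Both line 2 arrays lay above all others, while line 14 and wild type overlapped. Line 2 averaged 0.11 ± 0.03, line 14 -0.97 ± 0.42 and wild type -1.15 ± 0.50 (SD, n = 2 each). The line 2 difference from wild type was 1.26 on the log2 scale (2.39-fold, SE 0.39, 95% confidence interval 0.28 to 2.24, limma adjusted p = 0.596), so it was not called. In line 14 the difference from wild type was 0.17 (interval -0.80 to 1.15, limma adjusted p = 0.954). The direct comparison of line 14 with line 2 gave -1.09 (2.12-fold lower, interval -2.06 to -0.11, limma adjusted p = 1). Over both lines the difference was 0.72 (interval -0.13 to 1.56, limma adjusted p = 0.708).

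The 3 probes of GA20ox1, all named for coding sequence with 3' UTR, gave line 2 differences of 1.10 to 1.26. With each of them, as for 15.2% of all genes, the line 2 arrays lay above both wild-type arrays. Their line 14 differences from line 2 ran from -1.09 to -1.26. These probes read 1 transcript in the same RNA, so their likeness (Pearson's r 0.95 to 0.98 over the 6 arrays) describes the array and adds no replicate.

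GA20ox2, known as SD1, is the GA20-oxidase behind the semi-dwarf rice varieties. Its level was -1.52 and -1.95 on the line 2 arrays, -2.55 and -1.89 on those of line 14 and -2.19 and -2.85 on those of wild type. The line 2 arrays lay above those of wild type, and line 14 overlapped with wild type and with line 2. The difference from wild type was 0.79 in line 2 (interval -0.25 to 1.83, limma adjusted p = 0.872) and 0.30 in line 14 (interval -0.74 to 1.34, limma adjusted p = 0.927). The line 14 difference from line 2 was -0.49 (limma adjusted p = 1).

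The level of GA20ox2 rests on probes to the 3' UTR that the array design derived from expressed sequence tags. Probe 2, of the same kind, gave 1.00 in line 2 and 0.25 in line 14 against wild type. Probe 3 had signals of 111 and 139 on the line 2 arrays, 31.9 and 75.8 on those of line 14 and 227 and 42.9 on those of wild type, and was well above background on both line 2 arrays, on neither line 14 array and on 1 wild-type array. The probe was kept through line 2 alone, the group it is compared with here. At that probe the line 14 mean, with its arrays at a bound, lay 2.25-fold below that of line 2. The fitted difference was -1.40 (interval -3.86 to 1.06, limma adjusted p = 1 over all kept probes). Against wild type the probe gave 0.25 in line 2, -1.15 in line 14 and -0.45 over both lines. Such bounds concern a group with no array well above background. Each of its arrays was set to the lowest level called well above background on it, or to the probe's own level if higher. The other group kept its own levels. The 2 probes to the coding sequence were well above background on 0 and on 1 of the 6 arrays, with signals of 11.6 to 91.6 between them, and did not enter the test.

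GA3ox1 is 1 of the GA3-oxidases of rice, the enzymes of the last step to active gibberellin, and is known from reproductive organs. Its only probe had signals of 13.2 and 11.4 on the line 2 arrays, 20.6 and 19.5 on those of line 14 and 32.6 and 248 on those of wild type. Wild-type replicate 2 alone was well above background, so the locus was left out of the test. With the line arrays, all of them dim, at that bound, both lines lay 3.47-fold lower than wild type, line 2 5.48-fold and line 14 2.20-fold. Wild-type replicate 1, also dim, entered at its own level, so these are not minimum folds. The wild-type replicates lay 5.52-fold apart. With all dim probes admitted, the fit over 30218 genes gave -2.63 for both lines (interval -4.45 to -0.82, limma adjusted p = 0.589).

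GA3ox2, known as D18, is the main GA3-oxidase of vegetative rice. Its level was -2.53 and -3.41 on the line 2 arrays, -3.59 and -5.12 on those of line 14 and -2.44 and -3.71 on those of wild type. Line 14 lay below line 2 on both arrays, and wild type overlapped with each line. The line 14 difference was -1.38 from line 2 (interval -3.19 to 0.42, limma adjusted p = 1) and -1.28 from wild type (interval -3.08 to 0.52, limma adjusted p = 0.831). Line 2 differed from wild type by 0.10 (interval -1.70 to 1.91, limma adjusted p = 0.998), a sign that turned to -0.33 without line 2 replicate 1 and to -0.53 without wild-type replicate 2. With each array left out in turn, line 14 differed by -2.15 to -0.62 from line 2 and by -2.05 to -0.51 from wild type. The replicates lay 1.84-fold apart in line 2, 2.90-fold in line 14 and 2.41-fold in wild type. All 3 coding-sequence probes followed 1 pattern over the arrays (r 0.99 to 1), with line 14 differences from line 2 of -1.26 to -1.40.

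**Figure D2:**
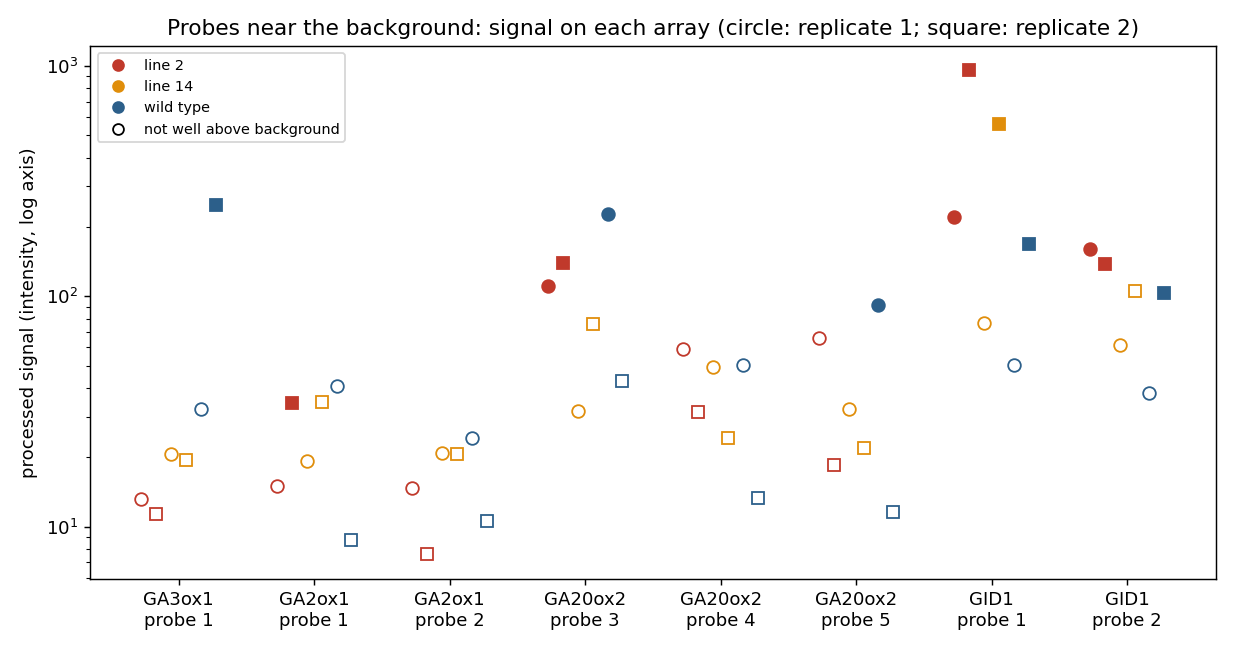
Processed signal on a log axis for the 8 gibberellin probes nearest the background, on every array, with line 2, line 14 and wild type from left to right within each probe. Circles are replicate 1, squares replicate 2, and open symbols arrays where the probe was not well above background. GA3ox1 has a filled symbol at 248 on 1 wild-type array alone, and GID1 probe 1 runs from 50.4 to 959.

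Among the GA2-oxidases, GA2ox1 was at the edge of detection. Its first probe had signals of 15.0 and 34.4 on the line 2 arrays, 19.3 and 34.7 on those of line 14 and 40.8 and 8.79 on those of wild type, and was well above background on line 2 replicate 2 only. Its second probe was well above background on no array, with signals of 7.59 to 24.3. At the first probe the groups overlapped. At the second, line 14 lay above line 2 on both arrays and wild type overlapped with each, all below the background call, and no fold could be bounded at either probe. With dim probes admitted the difference over both lines was 0.24 (interval -1.84 to 2.33, limma adjusted p = 0.981).

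GA2ox3 inactivates active gibberellins and their precursors. Its level was -0.57 and -0.96 on the line 2 arrays, -1.06 and 0.74 on the line 14 arrays, and 1.66 and 0.92 on the wild-type arrays. All 4 line arrays lay below both wild-type arrays. Line 2 averaged -0.76 ± 0.27, line 14 -0.16 ± 1.27 and wild type 1.29 ± 0.53 (SD, n = 2 each). Over both lines the difference from wild type was -1.75 on the log2 scale (3.37-fold lower, SE 0.57, 95% confidence interval -3.20 to -0.31, limma adjusted p = 0.524). In line 2 it was -2.05 (4.15-fold lower, interval -3.73 to -0.38, limma adjusted p = 0.635). In line 14 it was -1.45 (2.74-fold lower, interval -3.12 to 0.22, limma adjusted p = 0.761). None of these was called. Line 14 against line 2 gave 0.60 (interval -1.07 to 2.27, limma adjusted p = 1).

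The line 14 value rested on arrays that lay 3.49-fold apart. Without line 14 replicate 1 its difference from wild type was -0.55, and without line 14 replicate 2 it was -2.35. Over both lines, leaving out each of the 6 arrays in turn gave -1.30 to -2.20.

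**Figure D3:**
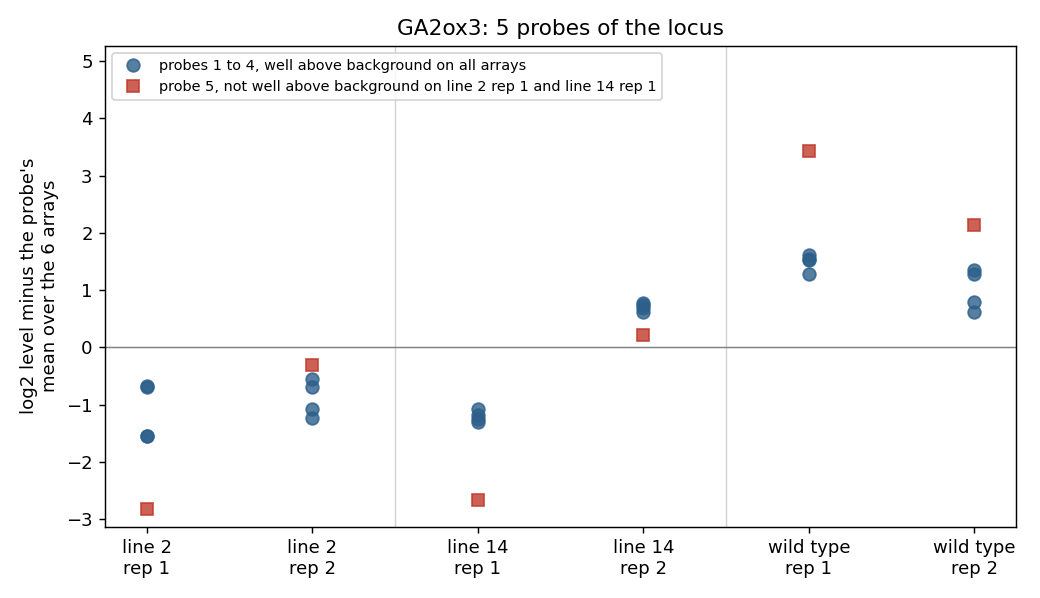
Level of the 5 GA2ox3 probes on each array, as log2 level minus the probe's own mean over the 6 arrays, with line 2, line 14 and wild type from left to right. Blue circles are probes 1 to 4 and red squares probe 5, which was not well above background on the replicate 1 arrays of the lines. All probes lie above 0 on both wild-type arrays and on line 14 replicate 2, and below 0 on the other 3 line arrays.

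GA2ox3 probes 1 to 4 gave -1.68 to -2.15 for both lines against wild type, with adjusted limma p over all kept probes of 0.435 to 0.602. In line 2 they gave -2.05 to -2.56, and with each the line 2 arrays lay below both wild-type arrays. In line 14 they gave -1.28 to -1.75, and all but probe 2 separated the arrays of line 14 and wild type. Of all genes, 17.4% had both line 2 arrays below those of wild type, and 18.1% had both line 14 arrays below them. Probe 2 lies in the coding sequence, while the other probes cover its end and the 3' UTR. The probes read 1 transcript in the same RNA, so their likeness (Pearson's r 0.84 to 1 over the 5 probes) adds no replicate. Probe 5 gave -4.18 for both lines, -4.35 in line 2 and -4.01 in line 14. Its signals were 18.4 and 126 on the line 2 arrays, 23.0 and 174 on those of line 14 and 1236 and 692 on those of wild type. Replicate 1 of each line was not well above background there and the probe was kept only through wild type, where it is high. Its fitted size is therefore uncertain, and it does not back the other probes.

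GID1 is the soluble gibberellin receptor. Its level was -5.10 and -3.26 on the line 2 arrays, -6.80 and -3.99 on those of line 14 and -7.06 and -5.78 on those of wild type. Replicate 1 of line 14 and replicate 1 of wild type were not well above background. Line 2 lay above wild type on both arrays, by a mean of 2.24 (4.72-fold, interval -0.61 to 5.09, limma adjusted p = 0.858), and by 1.32 to 3.16 with each array left out in turn. The probe was kept only through line 2, where it is high. Since these arrays did not overlap, leaving out an array could not turn the sign. Line 14 overlapped with wild type and differed by 1.02 (interval -1.83 to 3.87, limma adjusted p = 0.912), and it differed from line 2 by -1.22 (interval -4.07 to 1.63, limma adjusted p = 1).

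In all groups GID1 was higher on replicate 2 than on replicate 1, by 3.60-fold in line 2, 7.01-fold in line 14 and 2.44-fold in wild type. Whether these numbers pair the samples is not known, and the main fit did not pair them. Since each group holds both replicate numbers, a replicate block cannot change the line 2 difference of 2.24, only its test (limma adjusted p = 0.432). The second probe, over the 5' UTR and coding sequence, had signals of 160 and 138 on the line 2 arrays, 61.5 and 105 on those of line 14 and 37.9 and 103 on those of wild type. It too was kept only through line 2, the group where it is high, so its line 2 difference of 1.17 (interval -0.03 to 2.37, limma adjusted p = 0.791) does not back that of the first probe. At this probe line 14 was well above background on neither array. Its fitted difference from line 2 was -0.95 (1.93-fold lower, interval -2.15 to 0.25, limma adjusted p = 1).

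SLR1 is the DELLA protein of rice that gibberellin removes. Its single probe stood at 0.85 and 0.42 on the line 2 arrays, 0.83 and 0.33 on those of line 14 and 1.20 and 0.17 on those of wild type. The wild-type arrays were the highest and the lowest of the 6, and the line arrays all lay between them. The difference over both lines was -0.08 (interval -1.08 to 0.92, limma adjusted p = 0.982), an interval that reaches about as far on either side of 0. The sign of so small a value turned to 0 or above under median scaling. Replicate 1 was the higher in each group.

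The range of SLR1 over the 6 arrays was 1.02, against a median of 1.03 for the 19402 genes well above background on all arrays. Of these, 49.5% had a smaller range. The loci whose levels followed SLR1 most closely over the 6 arrays were Os06g0646000 (Pearson's r 0.9979) and Os01g0948400 (r 0.9978). They were picked from 19341 loci, 106 of which had an r over 0.95. The 6 points share their RNA samples and arrays, and the files pair neither ID with a name.

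The locus named GID2, after the F-box protein that binds SLR1, had 7 probes that fell into sets with opposite patterns. Probes 1 to 4, over a coding sequence and 3' UTR, correlated with each other over the 6 arrays at 0.55 to 0.87. Probes 5 to 7, of which probes 5 and 6 carry no named region and probe 7 lies in a coding sequence, correlated at 0.52 to 0.83. Between the sets all 12 correlations were negative, from -0.89 to -0.52. The sets were taken from these same 6 arrays, so the signs describe the grouping and do not test it. Probes 5 and 7 name the same source sequence. The reference gene table lists 2 overlapping genes with the synonym GID2, and 1 of them also carries the synonym GF14E. Which probes read which gene is not settled here, so values are given for both sets.

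**Figure D4:**
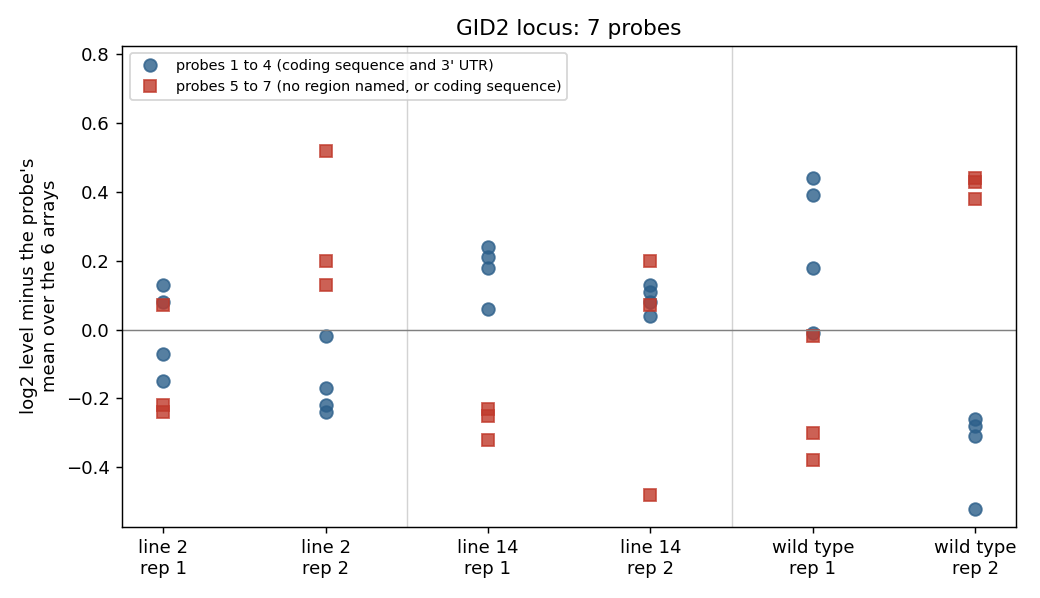
Level of the 7 probes of the GID2 locus on each array, as log2 level minus the probe's own mean over the 6 arrays, with line 2, line 14 and wild type from left to right. Blue circles are probes 1 to 4 and red squares probes 5 to 7. On line 2 replicate 2, line 14 replicate 1 and wild-type replicate 2 the sets lie on opposite sides of 0.

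The brightest probe of the locus, probe 1, had signals of 119064 to 151777 over the arrays. Its level was 4.10 and 3.73 on the line 2 arrays, 4.15 and 4.01 on those of line 14 and 4.15 and 3.69 on those of wild type, and the groups overlapped. It differed from wild type by -0.01 in line 2 (interval -0.82 to 0.81, limma adjusted p = 1) and by 0.16 in line 14 (interval -0.66 to 0.98, limma adjusted p = 0.95).

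Probe 7 stood at -4.73 and -4.27 on the line 2 arrays, -5.04 and -5.28 on those of line 14 and -5.09 and -4.36 on those of wild type. Line 14 lay below line 2 on both arrays, by a mean of -0.66 (interval -1.61 to 0.29, limma adjusted p = 1). It differed from wild type by 0.23 in line 2 (limma adjusted p = 0.983) and by -0.43 in line 14 (limma adjusted p = 0.905). The probes to 1 locus name thus gave line 14 differences from line 2 of -0.66 to 0.33, none of which was called. Arrays did not overlap for probes 2, 3 and 4, which were positive, nor for probe 7, against 31.5% of all genes.

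GAMYB, the downstream MYB factor, stood at -0.18 and 0.69 on the line 2 arrays, 0.31 and -0.20 on those of line 14 and -0.26 and 0.54 on those of wild type. The 3 groups overlapped. The difference from wild type was 0.12 in line 2 (interval -1.08 to 1.31, limma adjusted p = 0.996) and -0.08 in line 14 (interval -1.27 to 1.11, limma adjusted p = 0.983), and over both lines 0.02, a sign that turned with normexp and quantile normalization together. The 5 probes were alike over the arrays (r 0.87 to 0.99), and probes 1 and 2 name the same source sequence. They gave line 2 differences of 0.05 to 0.42 and line 14 differences of -0.11 to 0.14.

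**Figure D5:**
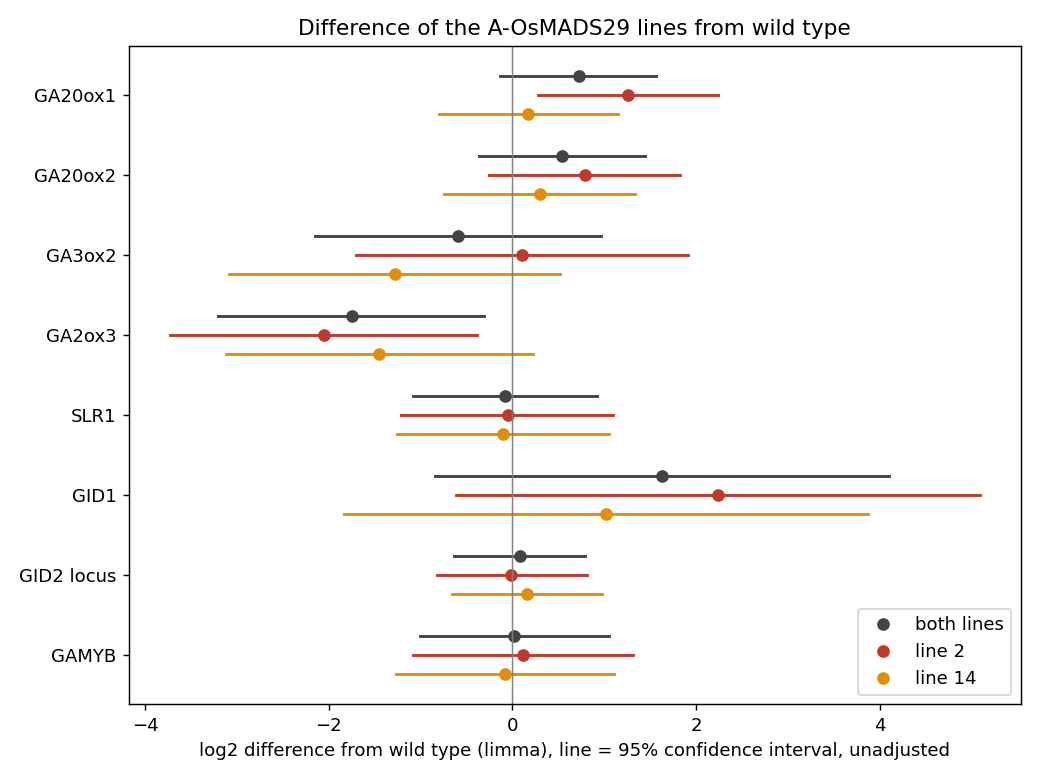
Difference from wild type on the log2 scale for the 8 tested gibberellin genes, from limma, with unadjusted 95% confidence intervals. Grey is the mean of both lines, red line 2 and orange line 14. Intervals that leave out 0 are those of GA2ox3 for both lines and line 2 and of GA20ox1 for line 2, none of which passed after adjustment.

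Over the whole set, both lines against wild type gave 0 calls among the 8 gibberellin genes in limma, where 32 of 22290 genes (0.144%) were called. At an unadjusted p under 0.05 there was 1 gibberellin gene, GA2ox3, against 7.89% of all genes. For 1 of the 8, again GA2ox3, the 4 line arrays all lay on 1 side of wild type, against 16.5% of all genes, and 8.84% on the lower side. The median difference was 0.05 over the 8 and 0 over all genes, with 5 of the 8 above wild type and 3 below.

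In line 2 against wild type, limma called 0 of the 8, against 0.0224% of all genes. GA20ox1 and GA2ox3 made 2 at an unadjusted p under 0.05, against 6.41% of all genes. Arrays did not overlap for 4 of the 8, against 32.6% of all genes. GA20ox1, GA20ox2 and GID1 were the 3 higher in line 2, against 15.2% of all genes, and GA2ox3 was the 1 lower, against 17.4%. GID1 passed the filter only through line 2, so its place among the higher genes partly restates the filter. The median difference was 0.11 over the 8 and 0.01 over all genes.

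In line 14 against wild type, limma called 0 of the 8, against 0.0404% of all genes, and 0 had an unadjusted p under 0.05, against 7.12%. Arrays did not overlap for 1 of the 8, GA2ox3, against 35.1% of all genes, with 18.1% lower like it. The median difference was 0.04 over the 8 and 0.01 over all genes. The comparisons with wild type share the wild-type arrays.

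Line 14 against line 2 gave 0 calls among the 8 and 0 among all 22290 genes in limma, with 1 of the 8, GA20ox1, at an unadjusted p under 0.05, against 3.46% of all genes. Arrays did not overlap for GA20ox1 and GA3ox2, both lower in line 14, which made 2 of the 8 against 31.5% of all genes, with 16.3% lower like them. The median difference was -0.34 over the 8 and 0 over all genes. The median half-width of a gene's 95% interval was 0.90 for both lines against wild type and 1.04 in each other comparison.

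Another 16 loci of the pathway, from a list that covers early synthesis, further GA20-oxidases and GA2-oxidases, another inactivating enzyme and further signalling proteins, were set by ID from general knowledge. The reference paired 0 of these IDs with a name, so they are given as counts. All 16 had probes, 21 in total, and 9 entered the test. Limma called 0 higher and 0 lower in each of the 4 comparisons, with a lowest adjusted p of 0.42. Over both lines 2 of the 9 lay above wild type and 7 below, where 50.3% of all genes lay above, with differences of -2.01 to 1.02 and a median of -0.27. In line 2 there were 4 above and 5 below wild type (median -0.08), and in line 14 there were 2 above and 7 below (median -0.30). An unadjusted p under 0.05 was seen for 1 of the 9 in each comparison with wild type, against 7.89% of all genes for both lines, 6.41% for line 2 and 7.12% for line 14, and for 0 in line 14 against line 2, against 3.46%.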

How the data were processed

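Per the file headers, the authors used an Agilent array (design 15241) and extracted 1 linear intensity per spot with Feature Extraction 10.7.3.1, after subtraction of background and without scaling across arrays. Deposited flags, coded 0 or 1, mark background, saturation and outliers. The authors' deposited log2 values, for which the sources used here state no method, are alike in distribution over the arrays (median 10.44 in each) and follow the log2 spot signal at r of 0.998 or above. They served as an alternative.

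Control spots (1417 of 45151), outlier spots (0.0983% to 0.183%) and 59 control probes of the design were left out. Each array's 75th percentile of log2 processed signal was subtracted and spots of a probe were averaged. Probes well above background on both arrays of at least 1 group were kept (32419), and the brightest kept probe stood for its locus, which gave 22290 genes. Of the 34 gibberellin probes, 29 were kept, for 8 of 10 loci, and 25 were well above background on all 6 arrays. A single limma 3.58.1 fit (R 4.3.3) held all 6 arrays, with group means, empirical Bayes moderation (3 residual and 2.36 prior degrees of freedom) and Benjamini-Hochberg adjustment at 0.05. Contrasts were both lines, line 2 and line 14 against wild type, and line 14 against line 2. The code was tested on simulated data. Figures used matplotlib 3.10.9.

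The members, lists and alternatives were chosen with earlier results of these data known. The text names all 10 loci, OsMADS29 and the 2 loci most like SLR1. The reference gene table (39387 genes) matched 0 of the 10 locus IDs. Cell type markers, which were to be used only where it named them, were therefore not used. Alternatives covered background correction, scaling, the filter on dim probes, single probes, an intensity trend, array weights, the replicate number and the slide as blocks, the arrays fitted, the threshold and each array left out. The number of arrays limits the precision.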

Additional observations from a re-analysis of the deposited data

How the results depend on the processing

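In none of 20 alternatives was a gibberellin gene called, and the lowest limma adjusted p was 0.3 (GA2ox3, both lines, without wild-type replicate 2). Of 604 gene values 48 took the other sign, for small differences, with another probe for GID2 or with an array left out. Many of the 604 could not do so, since settings that change only the test or the genes tested repeat the main difference. These include the threshold, the intensity trend, array weights, the blocks and the filters on dim probes. The authors' values nearly repeat quantile normalization. GA2ox3 kept its direction throughout, with -1.30 to -2.20 for both lines, -1.68 to -2.43 in line 2 and -0.55 to -2.35 in line 14. GA20ox1 in line 2 kept 0.90 to 1.61. In these comparisons the arrays did not overlap, so leaving out an array could not turn the sign.

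Counts over all genes depended more on the setting, and the cause was not tested. Against 32 called for both lines, 5 for line 2, 9 for line 14 and 0 for line 14 against line 2, normexp together with quantile normalization gave 24 for line 14. Quantile normalization and the authors' deposited values each gave 10 for line 2, 31 for line 14 and 1 for line 14 against line 2. Without a filter, which tests more genes, the counts were 4, 2 and 1 against wild type. With probes well above background on all arrays they were 4, 0 and 1. Every probe on its own gave 2 for line 2 and 14 for line 14, an intensity trend 9 for line 2, and array weights 5, 2, 1 and 1 in the 4 comparisons. Only the groups compared gave 0 for line 2 and 0 for line 14, and the threshold of 0.1 gave 69, 37, 54 and 1. Higher and lower calls split 18 to 14 for both lines, 15 to 25 with normexp and quantile normalization, 16 to 18 with quantile normalization alone, 20 to 15 with median scaling and 16 to 19 in the authors' values. For line 14 they split 7 to 2, 10 to 14 with normexp and quantile normalization, and 17 to 14 both with quantile normalization alone and in the authors' values. For line 2 they split 4 to 1, 8 to 2 in these last settings, 4 to 3 with normexp and quantile normalization and 4 to 0 with median scaling.

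The replicate block gave counts of 1, 0 and 0 against wild type. Same-numbered arrays deviated together at r of only 0.03 to 0.08 over all genes. This does not settle whether the samples were prepared in pairs, and the main fit did not pair them. With slide as a block only line 2 against wild type could be fitted, with 5 called, since line 14 is alone on its slide. The slide term then takes the place of the line 14 mean, so the fit repeats the main one and does not test the slide.

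Leaving out each array, which leaves a lone array assumed to vary like the others, gave 0 to 106 calls for both lines, 0 to 0 for line 2, 0 to 1 for line 14 and 0 to 0 between the lines. The 106, of which 92 were higher, came without wild-type replicate 2, and each of the other 5 arrays left out gave 0 to 2.

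Signs turned for GAMYB with both lines (-0.05, normexp and quantile normalization) and for GID2 with both lines (-0.06) and line 14 (-0.05) under quantile normalization and in the authors' values. Median scaling gave 0 for SLR1 with both lines, 0.01 in line 14 and 0.01 between the lines, 0.04 for GID2 in line 2 and 0.03 for GAMYB in line 14. The coding-sequence probe of the GID2 locus, chosen after seeing the data, gave -0.10, 0.23, -0.43 and -0.66. With single arrays left out, values against wild type ran as follows. GA20ox1 had -0.18 to 0.53 and GA20ox2 -0.03 to 0.63 in line 14. GA3ox2 had -1.22 to 0.05 with both lines and -0.53 to 0.74 in line 2, and GID1 -0.38 to 2.43 in line 14. SLR1 had -0.59 to 0.44 with both lines, -0.56 to 0.46 in line 2 and -0.61 to 0.41 in line 14. GID2 had -0.15 to 0.31, -0.24 to 0.23 and -0.07 to 0.39, and GAMYB -0.38 to 0.42, -0.31 to 0.55 and -0.48 to 0.32. Line 14 against line 2 gave -0.30 to 1.5 for GA2ox3, -0.30 to 0.20 for SLR1, -2.62 to 0.19 for GID1, -0.02 to 0.35 for GID2 and -0.63 to 0.23 for GAMYB. The normexp setting used the median spot signal in place of the planned mean. Signal over background limits GA3ox1, GA2ox1, GID1 and the coding-sequence probes of GA20ox2.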
